A study of Homo sapiens with 15 samples.

Results

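The genes described here are 10 regulators of the G1 phase of the cell cycle: the D-type cyclins CCND1, CCND2 and CCND3, their kinases CDK4 and CDK6, the CDK inhibitors CDKN1A, CDKN1B, CDKN1C and CDKN2C, and the cyclin G gene CCNG2. They were chosen by symbol, with earlier results of these data known, and each stood once among the 57964 entries of the expression table. D-type cyclins bind CDK4 or CDK6, and the active complex phosphorylates the retinoblastoma protein, which releases E2F factors and opens the way to S phase. CDKN2C (p18) belongs to the INK4 inhibitors, which bind CDK4 and CDK6 directly. CDKN1A (p21), CDKN1B (p27) and CDKN1C (p57) form the CIP/KIP family, which binds cyclin and CDK complexes, CDK2 complexes among them. In blood-forming cells CDK6 and CCND3 are known for their part in progenitor growth, and CDK6 is a known dependency of leukemias with MLL fusions.

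RNA was measured in MOLM-14, a human acute myeloid leukemia (AML) cell line with a rearranged MLL gene, in 8 libraries from 4 groups of 2. Cells were electroporated with 100 nM in vitro-transcribed (IVT) RNA for NR4A1, an orphan nuclear receptor, or with the same amount of GFP RNA, and incubated for 6 hours. Other cells received 10 uM dihydroergotamine (DHE), an ergot drug, or vehicle (DMSO), also for 6 hours, and the labels name no electroporation for them. The series also holds MED1 and NR4A ChIP-seq and input libraries, which were not analysed here. All groups come from 1 cell line, and nothing in the labels says that the 2 libraries of a group came from separate cultures, so p-values measure the spread between these libraries, which may be technical.

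Values are TPM, a gene's share of the transcripts of its library corrected for length, and keep no read counts, so sequencing depth is unknown. Scaled TPM are these values divided by a factor per library, between 0.887 and 1.11. NR4A1 stood at 719 and 674 TPM in NR4A1 RNA libraries, introduced RNA included, against 2.49 and 2.84 TPM in GFP RNA libraries, and at 1.43 and 1.67 TPM in DHE libraries against 1.27 and 1.70 TPM in vehicle libraries. Its relative NR4A3, near the floor in every library, stood at 0.191 and 0.258 TPM with DHE, against 0.00492 and 0.00665 TPM with vehicle. Of 12 myeloid markers, 11 or 12 reached 1 TPM in every library, and their summed level was 1255 to 1293 TPM in NR4A1 RNA, 1240 to 1379 TPM in GFP RNA, 1248 to 1362 TPM in DHE and 1604 to 1656 TPM in vehicle libraries. The sum was thus lower in DHE than in vehicle libraries, but the 12 markers went both ways. With DHE, limma called PTPRC (log2 fold change 1.08) and CSF1R (1.70) higher and MPO (-0.71), FLT3 (-0.95) and ELANE (-0.72) lower, and the median of the 12 was -0.085. With NR4A1 RNA it called LYZ (0.64) higher and SPI1 (-1.04) lower. Over all genes it called 19.2% with DHE and 4.91% with NR4A1 RNA. The part of these markers in the results below was not tested. Of 8 lymphoid markers 1 reached 1 TPM, of 8 erythroid and megakaryocyte markers 0, and of 8 epithelial and fibroblast markers 2. GFP RNA replicate 1 had the highest share of structural and ribosomal RNA, at 55.6% of its TPM against 41.5% to 46.3% in the other libraries, and the 2 GFP RNA libraries lay furthest apart (SD over genes of their log2 difference 0.65, against 0.50 to 0.62 in the other groups).

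Promoter sequence is shown for CDK4, CDKN2C and CCNG2. Among the members whose promoter was searched, these are the ones whose sequence holds the E-box letters bound by MYC and its partner MAX. CDK4 fell and CDKN2C and CCNG2 rose with DHE below. The 250 bases before the RefSeq start site, on the gene's strand and in build GRCh38.p14, were searched on both strands for CACGTG (the E-box), AAAGGTCA (the NBRE, to which NR4A receptors bind), TGTTTAC (a FOXO motif) and TTTNGCGC (an E2F motif). The windows lie at chr12:57752311-57752560 on the minus strand for CDK4, chr1:50969995-50970244 on the plus strand for CDKN2C and chr4:77156957-77157206 on the plus strand for CCNG2. Capitals mark the E-box letters.
CDK4: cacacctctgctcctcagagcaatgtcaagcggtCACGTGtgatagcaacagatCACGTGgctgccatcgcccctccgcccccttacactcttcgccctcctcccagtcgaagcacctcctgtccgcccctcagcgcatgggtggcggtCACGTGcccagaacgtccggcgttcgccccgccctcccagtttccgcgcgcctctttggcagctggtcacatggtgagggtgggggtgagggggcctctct
CDKN2C: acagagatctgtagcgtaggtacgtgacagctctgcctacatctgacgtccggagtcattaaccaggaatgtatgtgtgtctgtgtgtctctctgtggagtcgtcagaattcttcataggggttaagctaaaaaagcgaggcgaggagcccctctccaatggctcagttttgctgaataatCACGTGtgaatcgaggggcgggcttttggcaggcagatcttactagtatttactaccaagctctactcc
CCNG2: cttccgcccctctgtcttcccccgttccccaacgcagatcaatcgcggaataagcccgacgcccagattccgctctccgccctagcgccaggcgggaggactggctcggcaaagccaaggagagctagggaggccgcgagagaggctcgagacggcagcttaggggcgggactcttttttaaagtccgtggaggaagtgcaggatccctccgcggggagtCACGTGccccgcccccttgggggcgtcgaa

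The CDK4 window holds 3 matches, which begin 216, 196 and 101 bases before the start site. CDKN2C holds 1 match 69 bases before its start, and CCNG2 holds 1 match 30 bases before its start. The windows of CCND3, CDK6, CDKN1A and CDKN1B hold none of the 4 motifs, and no NBRE, FOXO or E2F match stands in the 3 windows printed. Of all 35116 promoter windows of the same length, 6.34% hold the E-box letters, 1.05% the NBRE, 2.98% the FOXO motif and 1.51% the E2F motif. A match describes these letters and is no measurement of binding. The promoters of CCND1, CCND2 and CDKN1C were not analysed here.

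With DHE 7 members were called changed, CDKN1C with its limit below among them, and 1 was called with NR4A1 RNA. Under DHE the cyclin gene CCND2 and both kinase genes fell, with log2 fold changes between -1.22 and -0.95, while the inhibitor genes CDKN1A, CDKN1C and CDKN2C and the cyclin G gene CCNG2 rose, with log2 fold changes between 0.70 and 2.46. With NR4A1 RNA, CCND2 was called lower (log2 fold change -0.67) and no member was called higher. Fold changes here are on the log2(scaled TPM + 0.5) scale, which understates the change of low genes, and a call needed an adjusted p under 0.05 in limma over all 14367 genes tested and a change of over 1.5-fold. All 10 members passed the filter of at least 1 TPM in at least 2 libraries, but CDKN1C passed it only through the DHE libraries and so had to differ. Of the other 9 members, DHE against vehicle gave 3 higher and 3 lower, where the comparison called 19.2% of all genes (9.07% higher, 10.1% lower). The members were chosen with earlier results of these data known, so counts of members here and below are descriptions and no test. NR4A1 RNA against GFP RNA gave 0 higher and 1 lower of the 9, where it called 4.91% of all genes (2.64% higher, 2.26% lower). At an unadjusted p under 0.05, 7 of the 9 members passed in NR4A1 RNA against GFP RNA, where 28.6% of all genes did, and 7 of the 9 in DHE against vehicle, where 45.0% did. The DHE and vehicle libraries did not overlap in 7 of the 9 members, where 69.9% of all genes did not overlap, and the NR4A1 RNA and GFP RNA libraries did not overlap in 9 of the 9, where 60.9% did not. The 9 include CCND1, which needed the GFP RNA libraries to pass the filter. Its place in the count of NR4A1 RNA against GFP RNA was thus favoured by the filter. In bulk RNA, a gene used by fewer cells and less of its RNA per cell cannot be told apart.

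**Figure D1:**
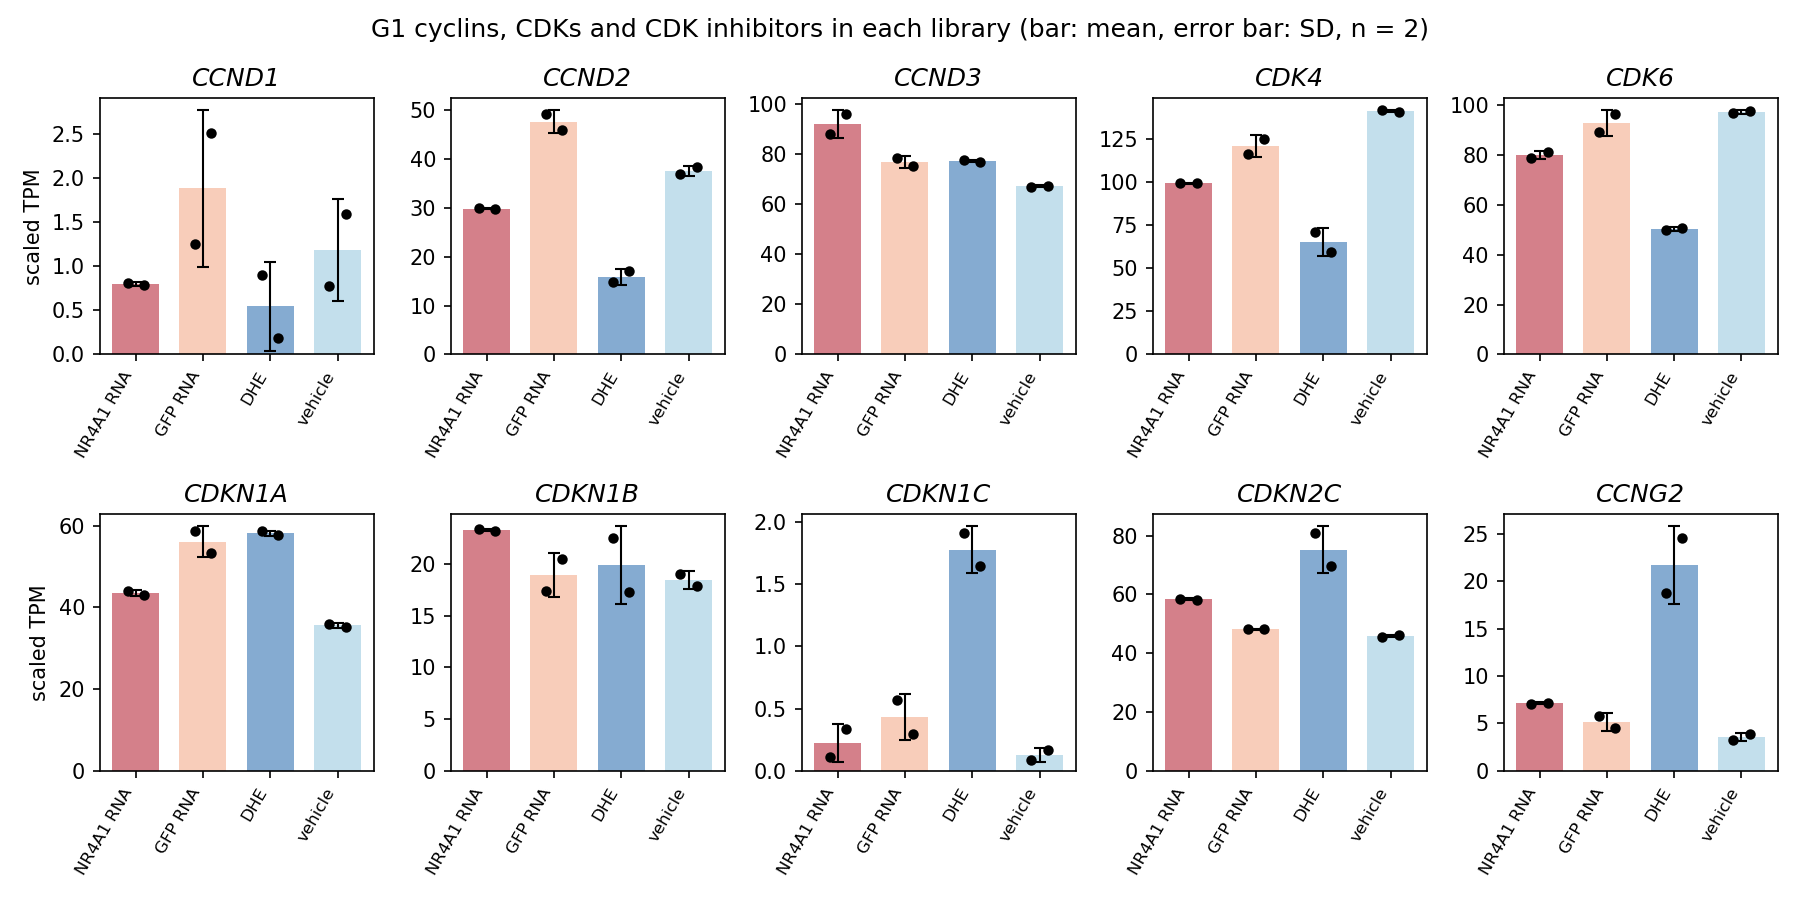
Scaled TPM (y axis, from 0, its own scale per gene) of each of the 10 genes in the 4 groups; points are libraries, bars the mean and error bars the SD of 2 libraries. CCND2, CDK4 and CDK6 are lowest and CDKN1C, CDKN2C and CCNG2 highest in the DHE libraries, and CDKN1A is as high in GFP RNA as in DHE libraries.

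**Figure D2:**
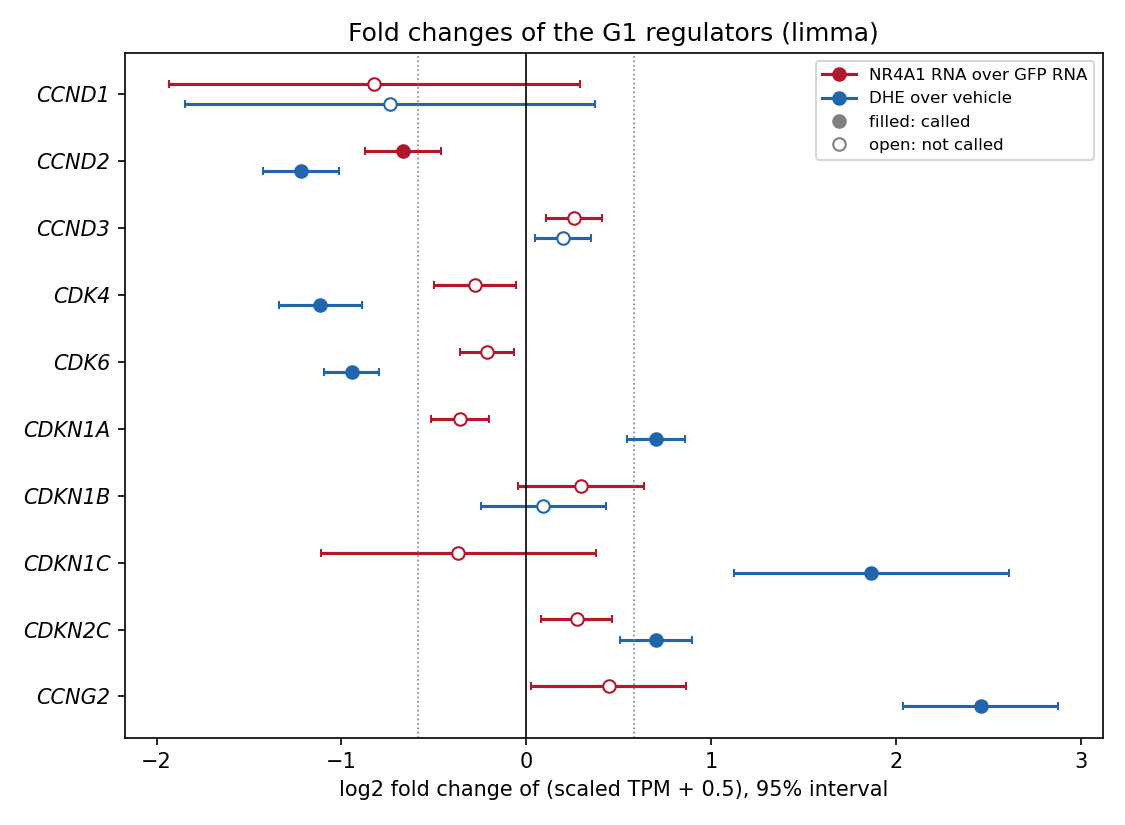
Log2 fold change of (scaled TPM + 0.5) with its 95% interval from limma for each gene, NR4A1 RNA over GFP RNA above and DHE over vehicle below; filled points were called and dotted lines mark 1.5-fold. With DHE 7 genes are filled, from CCND2 at -1.22 to CCNG2 at 2.46, and with NR4A1 RNA only CCND2 at -0.67. Among the 7, CDKN1C passed the filter only through the DHE libraries.

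Among the D-type cyclins, CCND2, on chromosome 12, was the member called lower in each treatment. It stood at 29.9 and 29.7 scaled TPM in NR4A1 RNA libraries, against 49.3 and 46.0 scaled TPM in GFP RNA libraries. With DHE it stood at 14.7 and 17.1 scaled TPM, against 36.9 and 38.4 scaled TPM with vehicle. The groups did not overlap in either comparison, and the order of the 4 groups was GFP RNA, vehicle, NR4A1 RNA and DHE from highest to lowest, with no neighbours overlapping. NR4A1 RNA gave a log2 fold change of -0.67 ± 0.08 (SE; limma adjusted p = 0.00994). For DHE the value was -1.22 ± 0.08 (limma adjusted p = 3.24e-04). The call with NR4A1 RNA was lost when TPM were not rescaled (limma adjusted p = 0.0712) and without NR4A1 RNA replicate 1 (limma adjusted p = 0.0919) or replicate 2 (limma adjusted p = 0.102).

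CCND3, the most abundant of the D-type cyclins, was called in neither treatment. It stood at 88.2 and 96.0 scaled TPM in NR4A1 RNA libraries, against 78.5 and 75.3 scaled TPM in GFP RNA libraries. With DHE it stood at 77.7 and 76.9 scaled TPM, against 67.1 and 67.5 scaled TPM in vehicle libraries. Each treatment's libraries lay above those of its control, and the DHE libraries lay within the range of the GFP RNA libraries. NR4A1 RNA gave a log2 fold change of 0.26 ± 0.06 (95% interval 0.10 to 0.41, limma adjusted p = 0.0595) and DHE one of 0.20 ± 0.06 (0.05 to 0.35, limma adjusted p = 0.0534). These p-values depend on the scaling. With upper quartile scaling the limma adjusted p was 0.0479 with NR4A1 RNA and 0.0189 with DHE. With no rescaling it was 0.172 and 0.168. The changes stayed under the 1.5-fold limit in each.

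CCND1, which many solid tumours overexpress, was near the floor of the measurement. It stood at 0.815 and 0.786 scaled TPM in NR4A1 RNA libraries, against 1.25 and 2.51 scaled TPM in GFP RNA libraries. With DHE it stood at 0.904 and 0.187 scaled TPM, against 0.778 and 1.59 scaled TPM with vehicle. The DHE and vehicle libraries overlapped, the NR4A1 RNA and GFP RNA libraries did not, and 3 libraries, 2 with GFP RNA and 1 with vehicle, carried the gene past the filter. Its 95% intervals, from -1.93 to 0.29 with NR4A1 RNA and from -1.84 to 0.37 with DHE on the log2 scale, include both 0 and a fall of more than 1.5-fold.

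The makeup of the D-type cyclin pool can be read within a library, where no scaling between libraries enters. CCND3 made up 74.1% and 75.9% of the summed D-type cyclin TPM in NR4A1 RNA libraries, against 60.8% in each of the GFP RNA libraries, and 83.2% and 81.7% with DHE, against 64.1% and 62.8% with vehicle. CCND2 per CCND3 was 0.324 ± 0.021 in NR4A1 RNA and 0.619 ± 0.012 in GFP RNA libraries, and 0.206 ± 0.023 in DHE and 0.559 ± 0.014 in vehicle libraries (SD, n = 2 each). The pool itself, summed over the 3 genes, came to 120.5 ± 2.4 TPM in NR4A1 RNA and 120.1 ± 7.9 TPM in GFP RNA libraries, and to 98.1 ± 9.8 TPM in DHE and 109.1 ± 0.2 TPM in vehicle libraries (SD, n = 2 each). The pool's balance was thus turned towards CCND3 in each treatment. These sums and shares are given as descriptions and were not tested.

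CDK4 fell with DHE. It stood at 99.7 and 99.4 scaled TPM in NR4A1 RNA libraries, against 116 and 125 scaled TPM in GFP RNA libraries. Under DHE it stood at 71.0 and 59.8 scaled TPM, against 142 and 141 scaled TPM in vehicle libraries. The 4 groups did not overlap, in the order vehicle, GFP RNA, NR4A1 RNA and DHE from highest to lowest. DHE gave a log2 fold change of -1.11 ± 0.09 (limma adjusted p = 5.49e-04) and NR4A1 RNA one of -0.28 ± 0.09 (95% interval -0.50 to -0.06, limma adjusted p = 0.114). TSPAN31, a tetraspanin gene that overlaps CDK4 on the opposite strand, had 21.0 and 19.1 TPM in DHE libraries, against 10.6 and 11.7 TPM in vehicle libraries. The libraries mark the strand, but whether the quantification used it is not given in the sources used here, and its part in the CDK4 values was not tested.

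CDK6, on chromosome 7, fell with DHE nearly as far as CDK4. It stood at 78.9 and 81.3 scaled TPM in NR4A1 RNA libraries, against 89.2 and 96.5 scaled TPM in GFP RNA libraries. DHE libraries had 49.8 and 50.8 scaled TPM, against 96.9 and 97.7 scaled TPM in vehicle libraries. The order of the groups was that of CDK4, and the highest GFP RNA library lay just under the lowest vehicle library. Its log2 fold change was -0.95 ± 0.06 with DHE (limma adjusted p = 2.53e-04) and -0.21 ± 0.06 with NR4A1 RNA (95% interval -0.36 to -0.06, limma adjusted p = 0.085). The share of CDK4 in the summed TPM of both kinases was 55.4% ± 0.56 in NR4A1 RNA and 56.6% ± 0.065 in GFP RNA libraries, and 56.4% ± 3.30 in DHE and 59.2% ± 0.25 in vehicle libraries (SD, n = 2 each).

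CDKN1A, the p21 gene and a classical target of p53, had opposite signs in the 2 treatments. It stood at 44.03 and 42.94 scaled TPM in NR4A1 RNA libraries, against 58.7 and 53.3 scaled TPM in GFP RNA libraries. DHE libraries had 58.6 and 57.6 scaled TPM, against 35.9 and 35.2 scaled TPM in vehicle libraries. DHE libraries lay above vehicle libraries and NR4A1 RNA libraries below GFP RNA libraries, but the GFP RNA libraries overlapped those with DHE, and the NR4A1 RNA libraries lay above vehicle. With DHE its log2 fold change was 0.70 ± 0.06 (limma adjusted p = 7.9e-04), while that with NR4A1 RNA, -0.36 ± 0.06 (limma adjusted p = 0.0263), was under the 1.5-fold limit. The electroporated controls themselves differed from vehicle in this gene by 0.65 ± 0.06 on the log2 scale (limma adjusted p = 0.059), and this difference was past the threshold with a pseudocount of 0.1 (limma adjusted p = 0.0462) and without GFP RNA replicate 2 (limma adjusted p = 0.0347).

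CDKN1B, the p27 gene, whose protein is largely set by its turnover, did not pass the test in either treatment. It stood at 23.4 and 23.3 scaled TPM in NR4A1 RNA libraries, against 17.5 and 20.5 scaled TPM in GFP RNA libraries. Under DHE it stood at 22.6 and 17.3 scaled TPM, against 19.1 and 17.9 scaled TPM in vehicle libraries. The DHE libraries spanned the vehicle libraries, and the NR4A1 RNA libraries lay above every other library. Its log2 fold changes were 0.30 ± 0.14 with NR4A1 RNA (95% interval -0.04 to 0.64, limma adjusted p = 0.219) and 0.09 ± 0.14 for DHE (-0.25 to 0.43, limma adjusted p = 0.645).

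CDKN1C, the p57 gene, an imprinted gene known for keeping blood stem cells quiescent in mice, was low in every library and highest with DHE. It stood at 0.113 and 0.333 scaled TPM in NR4A1 RNA libraries, against 0.565 and 0.298 scaled TPM in GFP RNA libraries. In DHE libraries it stood at 1.91 and 1.64 scaled TPM, against 0.0854 and 0.164 scaled TPM in vehicle libraries. The DHE libraries lay above all others, and the NR4A1 RNA and GFP RNA libraries overlapped. The log2 fold change with DHE was 1.87 ± 0.30 (limma adjusted p = 0.00581), and its size depends on the pseudocount, between 1.30 and 3.08 over the alternatives in which the gene was tested. CDKN1C passed the filter only through the DHE libraries, so this p is no separate support.

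CDKN2C, the p18 gene, was the most abundant inhibitor transcript with DHE, NR4A1 RNA and vehicle, but not with GFP RNA. It stood at 58.5 and 58.1 scaled TPM in NR4A1 RNA libraries, against 48.1 and 48.3 scaled TPM in GFP RNA libraries. In DHE libraries it stood at 80.8 and 69.5 scaled TPM, against 45.7 and 46.1 scaled TPM in vehicle libraries. No groups overlapped, in the order DHE, NR4A1 RNA, GFP RNA and vehicle from highest to lowest. The log2 fold change was 0.70 ± 0.08 with DHE (limma adjusted p = 0.00158) and 0.27 ± 0.08 with NR4A1 RNA (95% interval 0.08 to 0.46, limma adjusted p = 0.0876).

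CCNG2, an unconventional cyclin that is high in resting cells and a known FOXO target, had the highest log2 fold change of the 10 genes with DHE at the pseudocount of 0.5, while at a pseudocount of 0.1 CDKN1C was above it (3.08 for CDKN1C, against a highest value of 2.65 for CCNG2 over its alternatives). It stood at 7.08 and 7.21 scaled TPM in NR4A1 RNA libraries, against 5.83 and 4.48 scaled TPM in GFP RNA libraries. In DHE libraries it stood at 18.8 and 24.6 scaled TPM, against 3.22 and 3.82 scaled TPM in vehicle libraries. No groups overlapped, and the order from highest to lowest was that of CDKN2C. The log2 fold change was 2.46 ± 0.17 with DHE (limma adjusted p = 3.33e-04), a 5.49-fold rise on this scale, and 0.45 ± 0.17 with NR4A1 RNA (95% interval 0.03 to 0.86, limma adjusted p = 0.156).

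**Figure D3:**
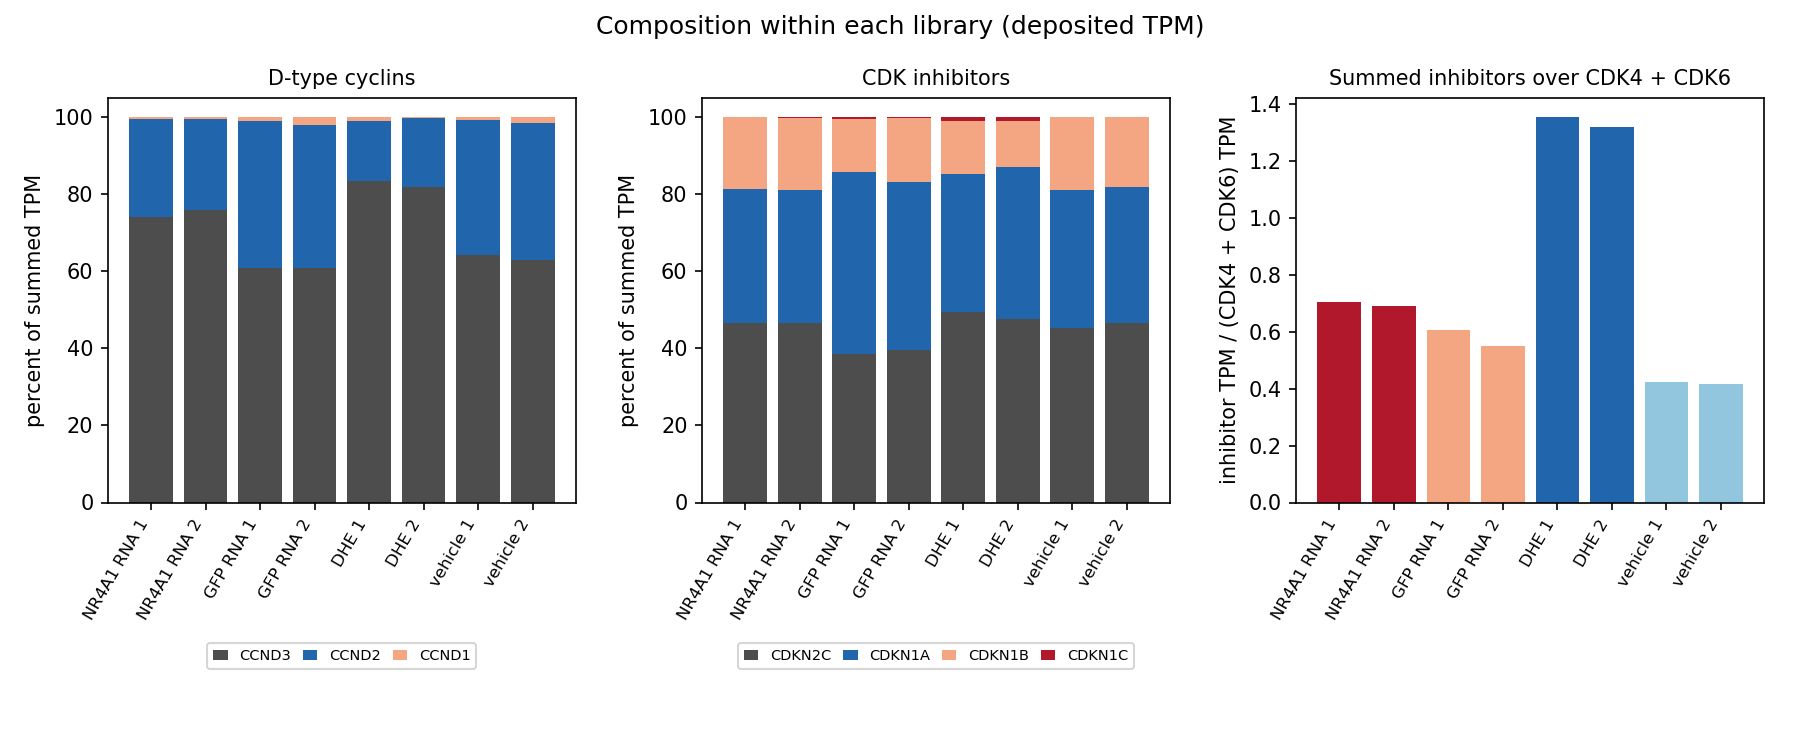
Share of each gene in the summed deposited TPM of the D-type cyclins (left) and of the CDK inhibitors (middle), in percent, and summed inhibitor TPM over CDK4 and CDK6 TPM (right), 1 bar per library. CCND3 takes 81.7% to 83.2% of the cyclins with DHE and the inhibitor ratio is 1.32 to 1.36 there, against 0.416 to 0.422 with vehicle.

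Within each library, the 4 inhibitors were summed and divided by CDK4 and CDK6 together. The ratio was 0.706 and 0.690 in NR4A1 RNA libraries, against 0.607 and 0.552 in GFP RNA libraries, and 1.36 and 1.32 with DHE, against 0.422 and 0.416 with vehicle. Inhibitor transcripts thus exceeded those of the kinases in the DHE libraries and in no other. Of the parts of the ratio, summed kinase TPM were 120.6 ± 3.7 with DHE and 245.4 ± 3.9 with vehicle, and summed inhibitor TPM were 161.5 ± 2.0 with DHE and 102.9 ± 2.7 with vehicle (SD, n = 2 each). In the electroporated cells the kinases summed to 176.4 ± 2.8 TPM with NR4A1 RNA and 203.9 ± 30.3 TPM with GFP RNA, and the inhibitors to 123.2 ± 4.0 TPM with NR4A1 RNA and 117.5 ± 9.6 TPM with GFP RNA (SD, n = 2 each). CDKN2C and CDKN1A made up most of the inhibitor sum in every library, at 38.5% to 49.3% for CDKN2C and 34.4% to 47.0% for CDKN1A. The share of CDKN1A was 34.9% and 34.4% with NR4A1 RNA, against 47.0% and 43.6% with GFP RNA, and 35.8% and 39.4% with DHE, against 35.7% and 35.4% with vehicle. TPM count transcripts and say nothing of protein.

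The effect of DHE was set against that of NR4A1 RNA by a test of the difference itself, at an adjusted p under 0.05 in limma. Of the 9 members other than CDKN1C, 3 had a higher effect with DHE and 3 a lower one, where 18.9% of all genes differed (8.03% higher, 10.9% lower). Of these 9, the difference was largest for CCNG2 (2.01 ± 0.24 on the log2 scale, limma adjusted p = 0.00675) and CDKN1A (1.06 ± 0.09, limma adjusted p = 0.00297), followed by CDK4 (-0.83 ± 0.13, limma adjusted p = 0.0123) and CDK6 (-0.73 ± 0.09, limma adjusted p = 0.00615). CDKN1A and CCNG2 kept this call in each of 20 alternatives, and CDK6 in 19. CCND2 (-0.55 ± 0.12, limma adjusted p = 0.0293) and CDKN2C (0.43 ± 0.11, limma adjusted p = 0.0464) also differed, but CCND2 lost the call in 8 and CDKN2C in 9 of 20 alternatives. CDKN1C (2.23 ± 0.43, limma adjusted p = 0.0222) passed the filter only through the DHE libraries, so this p is no separate support. It lost the call in 5 of the 16 alternatives in which it was tested. CDK4 lost it in 4 of 20, each one a fit without a library of the NR4A1 RNA or vehicle group. CCND3 (-0.06, 95% interval -0.27 to 0.16) and CDKN1B (-0.20, 95% interval -0.68 to 0.28) gave no difference past the threshold. Only the RNA groups were electroporated per the labels, and that cannot be told apart from the agent in this comparison of effects.

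GFP RNA libraries were also compared with vehicle libraries, which differ in electroporation and the introduced RNA. limma called 0.0139% of all genes (2 higher, 0 lower) and 0 of the 10 members. The groups did not overlap in 7 of the 9 members other than CDKN1C, where 54.7% of all genes did not, and 5 of the 9 passed an unadjusted p under 0.05, where 18.7% of all genes did. Besides CDKN1A, the log2 differences were 0.49 ± 0.17 for CCNG2 (limma adjusted p = 0.244), 0.34 ± 0.08 for CCND2 (limma adjusted p = 0.195) and -0.23 ± 0.09 for CDK4 (limma adjusted p = 0.263). These share their libraries with the comparisons above.

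Over the 8 libraries, CDK4 and CDK6 varied together (Pearson r = 0.97 between their log2 values), and each varied against CCNG2 (r = -0.99 for CDK4, -0.98 for CDK6) and CDKN2C (r = -0.93 for CDK4, -0.96 for CDK6). CCND2 followed CDK6 (r = 0.95) and ran against CDKN2C (r = -0.94). CDKN1A followed neither kinase as closely (r = -0.66 with CDK4, -0.61 with CDK6), and CDKN1B had |r| under 0.4 with every member but CCND3 (r = 0.67). The 8 libraries fall into 4 groups and share their treatments and scaling, so these values describe the libraries and carry no p.

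Genes averaging 5 scaled TPM or more were searched, and those with the pattern most like each member over the 8 libraries were ranked by that correlation. For CDK4 these were RRP7A, CEBPZ and AC011753.3 (r = 0.998, 0.997 and 0.997), and for CDK6 TXLNG, PYCR1 and POLR1C (r = 0.999, 0.998 and 0.998). For CCND2 they were VKORC1L1, PLOD3 and GNL3L (r = 0.992 to 0.993), and for CCND3 DPYSL2, HOXA10 and LCP2 (r = 0.97 for each). For CDKN2C they were DNAJC1, TMEM57 and RBM23 (r = 0.993 to 0.995), and for CCNG2 MAN2A1, ST3GAL5 and STIL (r = 0.990 to 0.997). CDKN1A was nearest to HIVEP1, HMGXB4 and ZC3H7A (r = 0.960 to 0.979), and CDKN1B to HIST1H2AH, HIST1H1E and MAP3K13 (r = 0.966 to 0.970). The low genes CDKN1C (UBE2H, CTD-2116N17.1 and PPFIBP1, r = 0.984 to 0.990) and CCND1 (CDKN2AIP, ZMYND11 and ALKBH5, r = 0.948 to 0.955) are given for completeness. The search took in 8960 or 8961 genes for each member, so high values arise in any such ranking.

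MYC, the oncogene at the centre of the study and a known regulator of CDK4 and CCND2 and repressor of CDKN1A, stood at 83.4 and 86.1 scaled TPM in NR4A1 RNA libraries, against 166.1 and 155.1 scaled TPM in GFP RNA libraries. With DHE it stood at 18.6 and 18.1 scaled TPM, against 191.8 and 183.8 scaled TPM with vehicle. The order of the groups was the one seen for CDK4 and CDK6. NR4A1 RNA gave MYC a log2 fold change of -0.92 ± 0.06 (limma adjusted p = 0.0017). DHE gave -3.32 ± 0.06 (limma adjusted p = 3.33e-05). Its part in the member genes' values was not tested.

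**Figure D4:**
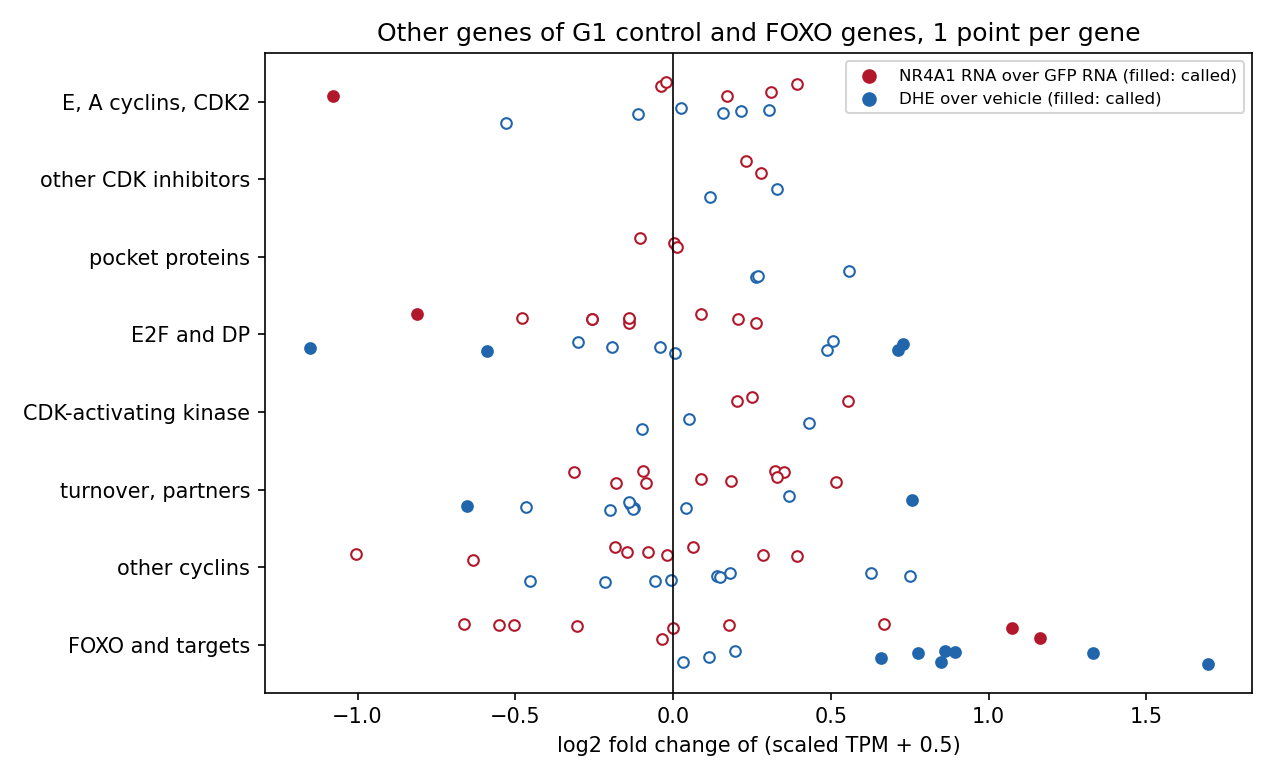
Log2 fold change of (scaled TPM + 0.5) of the other genes of G1 control and of FOXO genes, 1 point per tested gene, NR4A1 RNA over GFP RNA above and DHE over vehicle below in each list; filled points were called. The FOXO list holds 7 filled points with DHE, between 0.66 and 1.69, and the lists of E and A cyclins, other inhibitors and pocket proteins hold none with DHE. Among the 7, PIK3IP1, BCL6 and SESN3 needed the DHE libraries to pass the filter.

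The genes that act beside or after the members are read against the 19.2% of all genes called with DHE and the 4.91% called with NR4A1 RNA. These lists were also chosen with earlier results of these data known, so their counts are descriptions and no test. Among CCNE1, CCNE2, CCNA1, CCNA2, CDK2 and CDC25A, the E- and A-type cyclins with their kinase and its activating phosphatase, 0 of 6 were called with DHE (median log2 fold change 0.09, against 0.04 over all genes). With NR4A1 RNA 1 of the 6 fell, CCNA1, a cyclin of germ cells and myeloid leukemia, at 2.46 and 2.40 TPM, against 4.63 and 6.47 TPM with GFP RNA (log2 fold change -1.08, limma adjusted p = 0.00491). The INK4 genes CDKN2A and CDKN2B were listed at 0 TPM in 8 and 7 of the 8 libraries, and CDKN2D and CDKN3, the tested genes of the other inhibitors, were not called. Of the 3 pocket proteins 0 were called. RB1, the retinoblastoma gene, had 39.8 and 46.2 TPM in DHE libraries, against 29.5 and 27.5 TPM in vehicle libraries, with a log2 fold change of 0.56 ± 0.08 that was under the 1.5-fold limit (limma adjusted p = 0.00339).

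Among the 10 E2F and DP factors, 2 rose and 2 fell with DHE (median log2 fold change -0.02), where 9.07% of all genes were called higher and 10.1% lower. E2F2, an activator, and TFDP2, a dimer partner, rose (0.73 and 0.71, limma adjusted p = 0.00143 and 0.0134). E2F4 and E2F5, which act with pocket proteins as repressors, fell (-0.59 and -1.15, limma adjusted p = 0.00182 and 0.0011). E2F5 also fell with NR4A1 RNA (-0.81, limma adjusted p = 0.0146), at 1.69 and 1.63 TPM, against 2.82 and 3.56 TPM with GFP RNA. It was the only one of the 10 called there. The CDK-activating kinase genes CDK7, CCNH and MNAT1 and the 9 tested cyclins outside the cycle engine gave 0 calls in either treatment. Of the 10 genes for turnover and partners of cyclin D and p27, 0 were called with NR4A1 RNA, while with DHE CCNDBP1, a cyclin D binding protein, rose (0.76, limma adjusted p = 0.00829) and FBXO31, a ubiquitin ligase subunit for cyclin D1, fell (-0.65, limma adjusted p = 0.00703).

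FOXO factors drive CCNG2, CDKN1A and CDKN1B in other settings, and their genes with other known targets made a list of 10. With DHE 7 of the 10 rose and 0 fell (median log2 fold change 0.81, against 0.04 over all genes, of which 9.07% were called higher). The list was chosen with earlier results of these data known, so this share is a description and no test. PIK3IP1 passed the filter only through the DHE libraries, and 6 of the other 9 rose. Outside the DHE libraries, BCL6 reached 1 TPM only in NR4A1 RNA replicate 2 (1.20 TPM), and SESN3 only in NR4A1 RNA replicate 1 (1.13 TPM). BCL6 and SESN3 thus also needed the DHE libraries to pass the filter, and their rise is no separate support. FOXO1 had 6.66 and 8.70 TPM with DHE, against 2.01 and 1.91 TPM with vehicle (log2 fold change 1.69 ± 0.13, limma adjusted p = 4.41e-04). FOXO4 had 5.29 and 6.23 TPM with DHE, against 3.09 and 2.54 TPM with vehicle (0.89 ± 0.11, limma adjusted p = 0.00245). TXNIP, which restrains glucose uptake, had 72.7 and 69.7 TPM with DHE, against 44.6 and 43.8 TPM with vehicle (0.66 ± 0.09, limma adjusted p = 0.00275). The DHE and vehicle groups did not overlap in these 3 genes, nor in 69.9% of all genes. BCL6, a repressor, had 1.80 and 2.76 TPM with DHE, against 0.578 and 0.555 TPM with vehicle (1.33 ± 0.28, limma adjusted p = 0.0142), and KLF6 and SESN3 rose as well, while IRS2 (0.03), BCL2L11 (0.11) and FOXO3 (0.20) were not called. With NR4A1 RNA 2 of the 10 rose, and these were the factor genes FOXO1, at 6.27 and 6.09 TPM against 2.75 and 2.43 TPM with GFP RNA (1.07 ± 0.13, limma adjusted p = 0.00862), and FOXO4, at 7.11 and 7.49 TPM against 2.50 and 3.32 TPM with GFP RNA (1.16 ± 0.11, limma adjusted p = 0.00493). The median of the list with NR4A1 RNA was -0.02, as over all genes. The part of FOXO factors in the member genes' values was not tested.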

How the data were processed

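RNA-seq was measured in 8 libraries. After trimming (Trim Galore), the authors ran Salmon 0.11.0 and deposited TPM for 57964 entries, per the file headers. The submitters' processing notes name hg19. The deposited table also holds 6 columns of the authors' own comparisons (log2 fold changes and p-values from DESeq2), which were not used. TPM keep no counts, so depth is unknown and precision comes from the 2 libraries of each group.

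Libraries were scaled by the median of ratios over genes at 1 TPM or more in all 8. The 14367 genes that reached 1 TPM in 2 or more libraries were fitted as log2(scaled TPM + 0.5) with limma 3.58.1 in R 4.3.3, with a mean per group, an intensity trend, and 4 residual and 2.07 prior degrees of freedom. p-values were Benjamini-Hochberg adjusted over all tested genes. The steps were tested on simulated data. Where a symbol was repeated, the entry with the highest mean was used.

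The members and gene lists were chosen with earlier results of these data known. Named genes were every member, the called genes of each list (at most 4 per comparison, by smallest p), the 3 most correlated genes per member, NR4A1 and MYC. CDK2, CDC25A, RB1, CDKN2A, CDKN2B, CDKN2D, CDKN3, TSPAN31 and uncalled list genes are named beside counts and were chosen after their values were seen. NR4A3 was also named after its values were seen. Promoters came from RefSeq and were searched with Python 3.11.15. Alternatives were other scalings, pseudocounts, filters, thresholds, array weights, robust moderation, summed symbols, only the 4 libraries compared, a replicate block, and leaving out each library. Which transcripts count as structural RNA, and the fit without GFP RNA replicate 1 and DHE replicate 2 together, were settled after seeing the data.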

Additional observations from a re-analysis of the deposited data

How the results depend on the processing

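With DHE, at the 1.5-fold limit, the calls of 6 members held in each of 21 alternatives, and that of CDKN1C in each of the 17 in which it was tested. CDKN1C passed the filter only through the DHE libraries, so its count is no separate support. The fall of CDK6 with DHE (log2 fold change -0.95) was under a 2-fold limit, so CDK6 was not called lower there. Members called lower with NR4A1 RNA numbered 0 with no rescaling, 2 by adjusted p alone and 0 at a 2-fold limit (0 to 1 leaving out 1 library), and members called higher with DHE numbered 2 at a 2-fold limit and 3 without GFP RNA replicate 1 and DHE replicate 2, where CDKN1C was not tested. For GFP RNA against vehicle, 1 member was called with a pseudocount of 0.1 (0 to 1 leaving out 1 library). Members whose effects differed numbered 4 with no rescaling (3 to 6 leaving out 1 library).

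The labels do not say whether the replicate numbers pair the libraries. The correlation of replicate differences was -0.01 between NR4A1 RNA and GFP RNA and 0.02 between DHE and vehicle. Its value furthest from 0 was -0.14, between GFP RNA and DHE. Such values cannot decide whether the libraries were prepared in pairs. With a replicate block, 4 members differed between treatments, as did 1478 of all genes, and 0 genes were called between GFP RNA and vehicle. CCND2 (limma adjusted p = 0.0595), CDKN1C (0.0508) and CDKN2C (0.079) lost that call, and the block changed no other member's call.

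Over all genes, calls with NR4A1 RNA (705) numbered 454 with no rescaling, 243 with only the 4 libraries compared, 1264 by adjusted p alone, 264 at a 2-fold limit and 93 to 1498 leaving out 1 library. Calls with DHE (2760) numbered 5004 by adjusted p alone and 1085 at a 2-fold limit. Calls between GFP RNA and vehicle (2) numbered 5 with equal totals without structural RNA, 37 with a pseudocount of 0.1, 25 with no filter, 4 with robust moderation, 4 with repeated symbols summed, 0 with only the 4 libraries, array weights or both doubted libraries left out, and 0 to 489 leaving out 1 library. Genes that differed between effects (2716) numbered 919 with no rescaling, 1619 with no filter and 422 to 4248 leaving out 1 library. The cause of these shifts was not tested.

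Equal totals without structural RNA moved the median of all genes to -0.11 with NR4A1 RNA, 0.10 with DHE, 0.11 for GFP RNA against vehicle and 0.18 for the difference of effects, and the share of higher calls to 41.1% with NR4A1 RNA (53.9% before) and 59.2% for the difference (42.5% before). Signs turned only in values that were not called. For GFP RNA against vehicle these were CDKN1B (-0.080 with no rescaling, -0.084 to 0.15 leaving out 1 library), CDKN2C (-0.044 with no rescaling) and CDK6 (0.049 with equal totals without structural RNA). For the difference of effects these were CCND3 (0.11 with equal totals without structural RNA), CDKN1B (0.093 without both doubted libraries) and CCND1 (-0.12 with a pseudocount of 0.1, -0.43 to 0.59 leaving out 1 library). With DHE it was CDKN1B (-0.092 to 0.28 leaving out 1 library).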
